A study of Mus musculus with 10 samples.

Results

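The microRNA miR-126 is encoded inside Egfl7, and the 10 genes described here are the deleted microRNA itself (Mir126a), the microRNA annotated on its opposite strand (Mir126b), the host gene Egfl7 and its close neighbours Agpat2, Notch1, Sec16a, Snapc4, Card9, Dnlz and Gpsm1. They were taken by name from a table of 25078 genes counted in RNA sequencing, and all 10 were listed, on 1 stretch of mouse chromosome 2 (mm10). The question asked of them was whether the host gene and the neighbours kept their expression when the microRNA was removed. The cells were LSK cells (Lin-Sca1+cKit+, the bone marrow fraction enriched in blood stem and early progenitor cells) from 5 CM mice and 5 CM/miR-126Δ/Δ mice. Both genotypes carried the inducible Cbfb56M allele, a knock-in of the CBFB-MYH11 (CM) fusion gene of inv(16) acute myeloid leukemia, on 1 copy of Cbfb, and the Mx1-Cre transgene on a C57BL/6 background. CM/miR-126Δ/Δ mice were in addition homozygous for a floxed miR-126 allele. All mice received 7 doses of poly(I:C) (14 mg/kg) from an age of 6 to 8 weeks to switch on Cre, and cells were sorted 6 weeks after the last dose, in the preleukemic phase. The Mx1 promoter answers to interferon and is not limited to blood cells, and neither genotype was free of the fusion gene.

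The 10 libraries held 23649233 to 33202086 counts, 1 library per mouse, so that the floor of 3 counts lay between 0.0904 and 0.127 CPM (counts scaled to the library total). Total counts were higher in CM (median 29763105) than in CM/miR-126Δ/Δ (median 24908932), and so was the labelled RNA concentration (median 27.9 and 20 ng/µl, ranges 20.6 to 40.9 and 16.1 to 29.5). The part of these differences in the results below was not tested. Mice 1 to 3 of each genotype were female and mice 4 and 5 male by their Xist and Y-linked counts. The LSK markers were detected as labelled, with Cd34 at 360 ± 20.1 and Kit at 166 ± 13.2 RPKM (CPM per kilobase of exon) in CM (SD, n = 5). Cdh5 and Kdr, which define endothelium, the other tissue in which Egfl7 and miR-126 are known to be active, averaged 0.213 and 0.257 RPKM. All 7 defining endothelial markers together held 5.88 to 16.1 CPM in CM mice and 6.75 to 10.9 CPM in CM/miR-126Δ/Δ mice, and none of the 7 was at 0 in all mice.

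A microRNA is cut from a hairpin in a longer transcript, and bases 2 to 8 of the mature strand, the seed, pair with target messages. miR-126 is transcribed with its host Egfl7, which encodes a secreted protein with EGF-like domains that acts on blood vessels and can bind Notch receptors, and it is known as a regulator of blood stem cell quiescence. Notch1, a receptor that controls cell fate, lies close to Egfl7 on the chromosome. By RefSeq (GRCm38.p6) the Mir126a hairpin covers 73 bases on the plus strand, chr2:26591357-26591429, and the Mir126b hairpin 58 bases on the minus strand, chr2:26591363-26591420, inside it. The 2 hairpins are printed because they are the transcribed sequence of the deleted element, with the mature strands in the table in capitals:
Mir126a hairpin: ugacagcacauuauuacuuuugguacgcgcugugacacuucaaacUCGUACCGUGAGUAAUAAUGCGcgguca
Mir126b hairpin: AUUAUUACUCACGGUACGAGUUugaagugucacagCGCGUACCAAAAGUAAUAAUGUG

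The mature strands are given below 5′ to 3′ with the seed in capitals, because the seed decides which messages each strand can pair with:
miR-126a-3p: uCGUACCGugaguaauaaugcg
miR-126b-3p: cGCGUACCaaaaguaauaaugug
miR-126b-5p: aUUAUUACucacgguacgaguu
The mature strands miR-126a-3p and miR-126b-5p come from opposite strands of the same bases and overlap by 19 bases. The seeds of miR-126a-3p and miR-126b-3p share the 6-base stretch CGUACC, offset by 1 position, and each of the 3 seeds was found in only 1 mature entry of the RefSeq table for mouse, so that the 3 strands form no shared seed group. miR-126a-5p is named only.

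The place of the hairpin in the host gene was read by matching its sequence to the NCBIM37 genome with its GENCODE annotation, a build other than that of the counts, in which the hairpin matched chromosome 2 at 1 place. Of 11 Egfl7 transcripts that span it, 10 have it in an intron, and in all 6 with 10 exons that is intron 7. In 1 transcript of 4 exons it lies in an exon. In the count table the hairpins were features of their own, so a read on the hairpin and a read on an Egfl7 exon were counted under different names.

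The microRNA host region was checked first. Mir126a counts were 4, 5, 0, 2 and 3 in CM mice 1 to 5 and 0 in all 5 CM/miR-126Δ/Δ mice. Every mouse with a read was CM, but CM mouse 3 had none, so the genotypes shared the value 0. The sums of 14 and 0 counts put Mir126a at least 3.96-fold lower in CM/miR-126Δ/Δ, against a floor of 3 counts over the group (exact permutation test on counts scaled to library total, two-sided, p = 0.0476, smallest possible p for 5 against 5 mice 0.00794). Mir126b had 1 count each in CM mice 2 and 4 and none in the other 8 libraries (exact permutation p = 0.444), which is under the floor and gives no fold. Per kilobase, Mir126a reads in CM amounted to 1.79% of the density over Egfl7 exons. With that ratio to the host, 11.0 counts over the 5 CM/miR-126Δ/Δ libraries would have matched CM. Libraries of long RNA do not capture the mature microRNA of about 22 bases, so these counts speak of the hairpin region of the primary transcript and not of the mature strands.

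Egfl7 RNA without miR-126 stayed within the levels of the CM mice. The host gene (chr2:26581083-26592682, plus strand) was, per exon length, the most highly expressed of the 8 protein-coding genes in every mouse. Its level in CM mice 1 to 5 was 104.7, 133.2, 87.8, 135.0 and 111.2 CPM, with library sizes scaled by edgeR's TMM factors. In CM/miR-126Δ/Δ mice 1 to 5 it was 105.4, 97.4, 108.7, 127.0 and 97.2 CPM. All 5 values without miR-126 lay inside the range of the 5 CM mice. The means were 114 ± 20.0 and 107 ± 12.2 CPM (SD, n = 5), a log2 fold change of -0.10 (SE 0.110) with a 95% interval of -0.33 to 0.14 (edgeR quasi-likelihood test, Benjamini-Hochberg adjusted p = 0.845). On a linear scale that interval runs from 0.795 to 1.10 times the CM level, so that a loss of Egfl7 RNA larger than this lower bound lay outside it. The exact permutation test of the CPM values gave p = 0.516. In females alone the log2 fold change was -0.06 (SE 0.129) and in males alone -0.13 (SE 0.151). These are RNA levels over the annotated exons, and the table does not show how the intron around the deleted element was spliced.

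**Figure D1:**
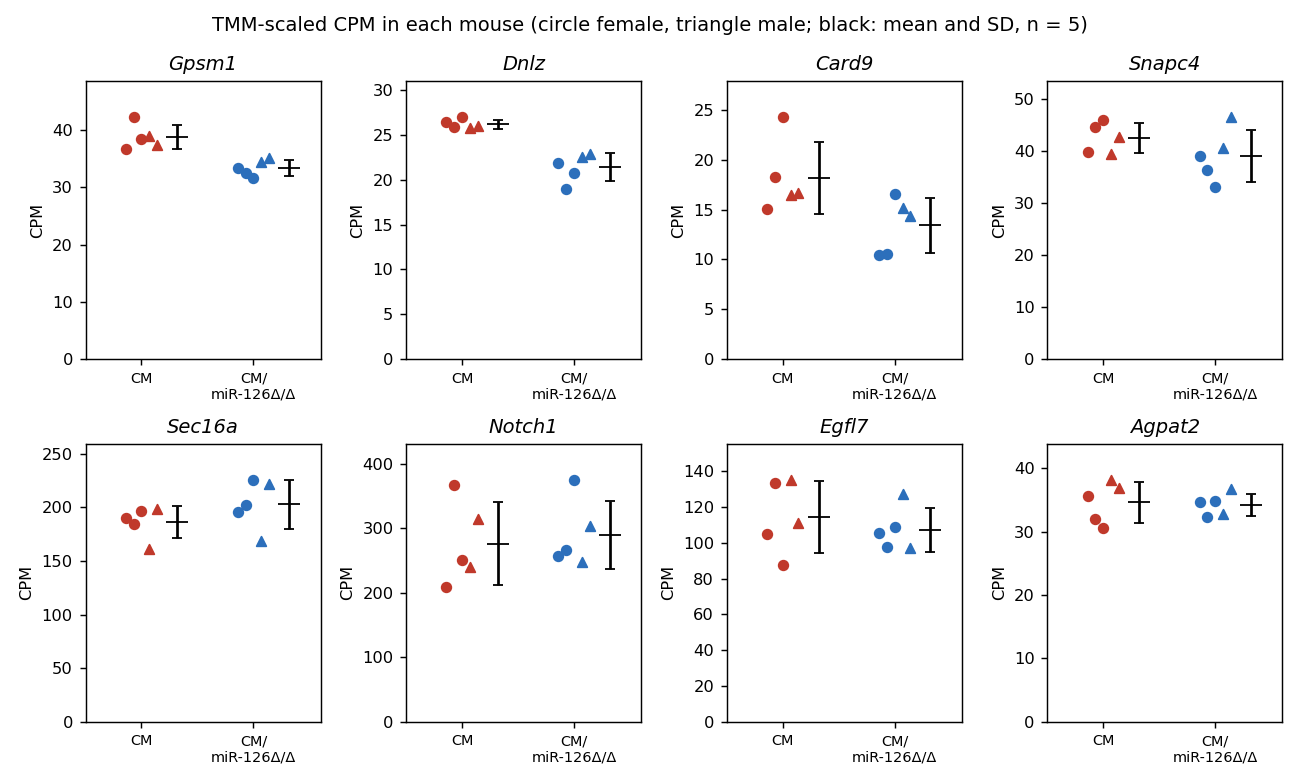
TMM-scaled CPM of the 8 protein-coding genes, 1 point per mouse (circles female, triangles male), red for CM and blue for CM/miR-126Δ/Δ, with the mean and SD of 5 mice in black and each y axis starting at 0. Egfl7 ranges overlap (87.8 to 135 against 97.2 to 127 CPM), while all 5 CM/miR-126Δ/Δ mice lie below all 5 CM mice for Dnlz and Gpsm1.

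Agpat2 and Notch1, on either side of Egfl7, showed no difference beyond the spread between mice. Agpat2 (chr2:26593057-26604417, minus strand), which encodes an acyltransferase of phospholipid and triglyceride synthesis, has its 3′ end 1627 bases beyond the hairpin and is transcribed towards Egfl7. It was at 35.7, 31.99, 30.6, 38.1 and 36.8 CPM in CM mice 1 to 5 and at 34.6, 32.3, 34.9, 32.7 and 36.7 CPM in CM/miR-126Δ/Δ mice 1 to 5. The second genotype lay wholly within the range of the first. The log2 fold change was -0.02 (SE 0.0761, 95% interval -0.18 to 0.15, adjusted p = 0.977 by edgeR's quasi-likelihood test), and its sign turned under 1 other filter and without some single mice.

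Notch1 (chr2:26457902-26503822, minus strand) lies 87534 bases from the hairpin on the other side. Its values were 208.8, 367.2, 250.7, 240.1 and 315.0 CPM in CM and 256.9, 265.6, 374.9, 247.4 and 303.8 CPM in CM/miR-126Δ/Δ. CM mouse 2 and CM/miR-126Δ/Δ mouse 3 stood highest, and the genotypes overlapped over nearly the whole range. The log2 fold change of 0.07 (SE 0.147) had a 95% interval of -0.25 to 0.38 (edgeR quasi-likelihood adjusted p = 0.932), so that Notch1 was measured less tightly than Egfl7, and the sign turned when CM mouse 1 or CM/miR-126Δ/Δ mouse 3 was left out. An antisense gene, 0610009E02Rik, overlaps Notch1 by 1480 bases with 15 to 38 counts per library, against at least 6125 for Notch1.

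Sec16a (chr2:26409431-26445216, minus strand) encodes a scaffold of the sites where vesicles leave the endoplasmic reticulum. It was at 190.4, 184.1, 196.7, 161.5 and 198.0 CPM in CM and at 196.0, 202.2, 225.5, 168.9 and 222.2 CPM in CM/miR-126Δ/Δ. Mouse 4 was the lowest of both genotypes, and the ranges overlapped. The log2 fold change was 0.12 (SE 0.0827, 95% interval -0.05 to 0.30, edgeR quasi-likelihood adjusted p = 0.765).

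Snapc4 (chr2:26362765-26380653, minus strand) encodes the largest subunit of the complex that starts small nuclear RNA transcription. Its values were 39.8, 44.7, 46.0, 39.6 and 42.8 CPM in CM and 39.0, 36.5, 33.04, 40.6 and 46.6 CPM in CM/miR-126Δ/Δ. The 3 female CM/miR-126Δ/Δ mice lay below every CM mouse, and the 2 males did not. The log2 fold change over all mice was -0.12 (SE 0.0864, edgeR quasi-likelihood adjusted p = 0.765). It was -0.26 (SE 0.0970) in females and 0.09 (SE 0.119) in males, and Snapc4 was the 1 gene of the 10 with an unadjusted p of 0.05 or less for the genotype-by-sex term (edgeR quasi-likelihood, unadjusted p of 0.0388, adjusted p = 1.00). Of all 18747 genes fitted, 2.57% passed that unadjusted limit.

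The farthest 3 neighbours, Dnlz, Gpsm1 and Card9, had lower means without miR-126, with all or most mice below the CM range, and none of the 3 passed edgeR's adjustment over all genes. They lie next to each other between 231797 and 243119 bases from the hairpin. Notch1, Sec16a, Snapc4 and further expressed genes that are not described here lie in between. CM mice did not carry the floxed allele. For genes of this region, loss of miR-126 and DNA linked to that allele therefore cannot be told apart.

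Dnlz (chr2:26348118-26352110, minus strand) encodes a mitochondrial zinc finger protein that helps to keep the mitochondrial Hsp70 soluble. CM mice 1 to 5 had 26.40, 25.94, 26.97, 25.74 and 25.98 CPM. CM/miR-126Δ/Δ mice 1 to 5 had 21.9, 19.0, 20.8, 22.5 and 22.9 CPM. The CM mice stood within a narrow band and all 5 CM/miR-126Δ/Δ mice below it, with no overlap. The means of 26.2 ± 0.491 and 21.4 ± 1.59 CPM (SD, n = 5) gave a log2 fold change of -0.29 (SE 0.0749, 95% interval -0.45 to -0.13), or 0.817 times the CM level. The unadjusted p was 0.00162 and the adjusted p 0.514 in edgeR's quasi-likelihood test, and the exact permutation test gave p = 0.00794, the smallest that 5 against 5 mice allow. DESeq2, run as an alternative, placed Dnlz at an adjusted p of 0.0423, where 0.33% of the genes with an adjusted p passed.

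Gpsm1 (chr2:26314611-26348237, plus strand) encodes a regulator of heterotrimeric G protein signalling. Its values in CM were 36.8, 42.2, 38.4, 38.9 and 37.4 CPM. Those in CM/miR-126Δ/Δ were 33.3, 32.6, 31.6, 34.4 and 35.1 CPM. Here too every CM/miR-126Δ/Δ mouse was below every CM mouse. The log2 fold change was -0.21 (SE 0.0636, 95% interval -0.35 to -0.08), with an unadjusted p of 0.00451 and an adjusted p of 0.637 (edgeR quasi-likelihood) and an exact permutation p of 0.00794. Gpsm1 and Dnlz overlap by 120 bases at their 3′ ends on opposite strands. The library kit keeps strand, but whether the counting used it is not given in the sources used here, so the 2 genes are uncertain over those bases.

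Card9 (chr2:26352171-26359559, minus strand) encodes an adaptor of myeloid cells that relays signals from fungal pattern receptors. It was at 15.1, 18.3, 24.3, 16.5 and 16.7 CPM in CM mice 1 to 5 and at 10.5, 10.5, 16.6, 15.1 and 14.4 CPM in CM/miR-126Δ/Δ mice 1 to 5. CM mouse 3 stood far above the other CM mice, CM/miR-126Δ/Δ mice 1 and 2 stood lowest, and the genotypes overlapped. The log2 fold change was -0.44 (SE 0.155, 95% interval -0.77 to -0.10), with an unadjusted p of 0.0140 and an adjusted p of 0.736 (edgeR quasi-likelihood) and an exact permutation p of 0.0397. Without CM mouse 3 the log2 fold change was -0.30 with an unadjusted p of 0.0526 in the same test. The myeloid marker Itgam also stood highest in CM mouse 3, at 133 CPM. It was at 70.4 to 90.0 CPM in the other CM mice and 62.0 to 74.1 in CM/miR-126Δ/Δ. Within CM/miR-126Δ/Δ the 2 genes were ordered differently. Mice 1 and 2, lowest for Card9, had the highest Itgam (73.9 and 74.1 CPM), and mouse 3, highest for Card9, had 66.9. Ly6g, another myeloid marker, had a log2 fold change of 0.82 at no more than 21 counts in a library. The 8 mature lineage markers summed to 81.2 to 159.5 CPM in CM and 69.0 to 91.3 CPM in CM/miR-126Δ/Δ, with Itgam at a log2 fold change of -0.35 (edgeR quasi-likelihood adjusted p = 0.746) and the only one of the 8 with an unadjusted p of 0.05 or less (12.5%, against 6.61% of all genes). LSK cells are sorted as lineage-negative, a gate meant to remove mature myeloid cells, and the antibodies listed for the study include one to the product of Itgam. The part of myeloid cells in the Card9 difference was not tested. In a bulk sample, fewer cells of a type and less RNA per cell cannot be told apart.

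**Figure D2:**
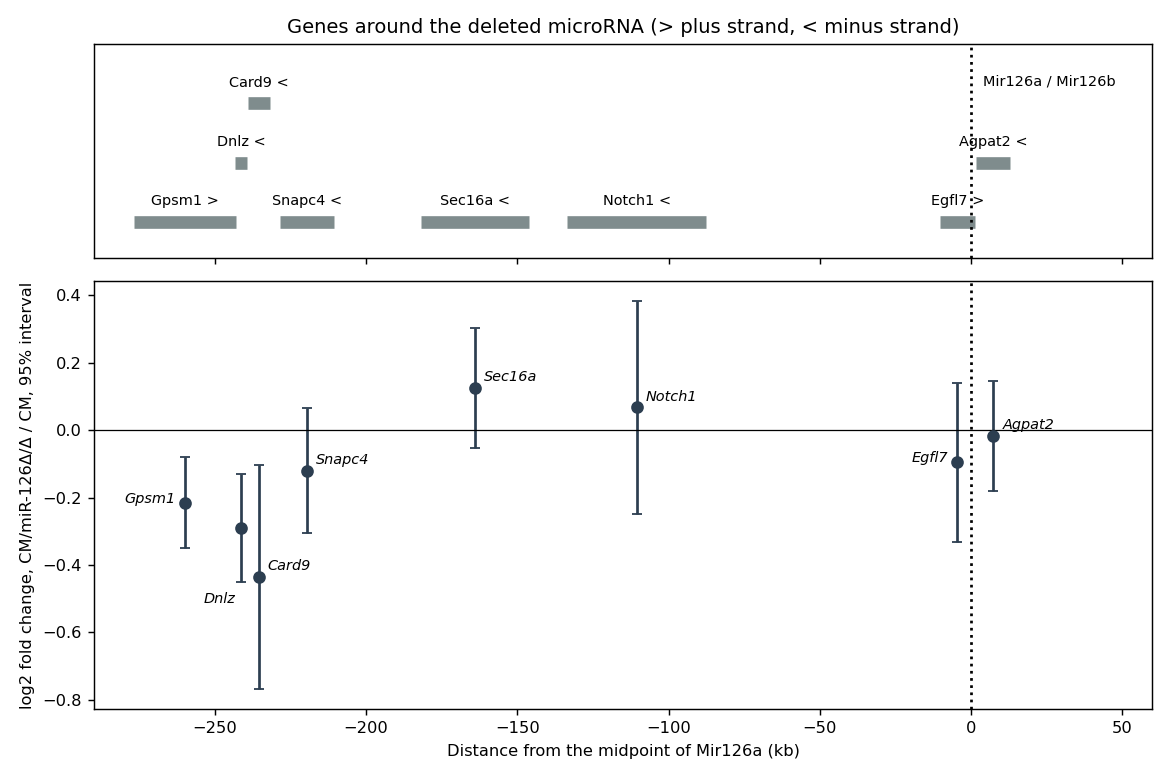
Top, the 8 protein-coding genes as bars at their distance in kb from the midpoint of Mir126a (dotted line), with the strand marked. Bottom, the log2 fold change of each gene (CM/miR-126Δ/Δ against CM, 5 mice each) with its 95% interval, where Gpsm1, Dnlz and Card9 have intervals below 0 and the other 5 intervals, Egfl7 and Agpat2 among them, include 0.

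As a group, 4 of the 10 genes (Mir126a, Dnlz, Gpsm1 and Card9) had an unadjusted p of 0.05 or less, all 4 lower in CM/miR-126Δ/Δ. Of all 18747 genes with a count, 6.61% passed that limit in either direction, 3.32% of the 18747 passed it with a lower level, and 0.0107% had an edgeR adjusted p under 0.05. None of the 10 genes had an edgeR adjusted p under 0.05, and DESeq2 gave 1. Among the 11682 genes with a mean of at least 1 RPKM in either genotype the unadjusted shares were 7.92% in both directions and 4.46% lower, and 0.728% had genotypes that did not overlap with CM/miR-126Δ/Δ lower, as Dnlz and Gpsm1 had. Over the 8 protein-coding genes, 6 were lower and 2 higher, with a median log2 fold change of -0.11, against -0.02 over the 11682 genes. Mir126a is the deleted element, so its value follows from the genotype, and the neighbours with an unadjusted p of 0.05 or less were the other 3. Those 3 lie side by side and may not be independent of each other, which was not tested.

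The 3 lower neighbours, chosen as lower in these same mice, had lower means in both sexes. For Dnlz and Gpsm1 this follows from genotypes that do not overlap, so it adds no support. In females Dnlz, Gpsm1 and Card9 had log2 fold changes of -0.36 (SE 0.0990), -0.27 (SE 0.0887) and -0.62 (SE 0.217). In males they were -0.18 (SE 0.114), -0.13 (SE 0.108) and -0.17 (SE 0.120). With each of the 10 mice left out in turn, the unadjusted edgeR p of Dnlz stayed at 0.00609 or less and that of Gpsm1 at 0.0182 or less.

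The wider region was examined to see how the neighbours sat among other genes. Within 1 Mb of Mir126a the table listed 71 genes, of which 55 had a count and 7 (12.7%) an unadjusted p of 0.05 or less. Of these 7, 6 were lower, and the count of 7 was 4 under a stricter filter on low counts. Beside the 4 named above these were Nacc2 (log2 fold change 0.31), Rabl6 (-0.11) and Rpl7a (-0.22), each with an edgeR quasi-likelihood adjusted p between 0.746 and 0.753. Without the 10 genes the count within 1 Mb was 3 of 45 (6.67%), close to the share over all genes. Of the 39 genes in this window with at least 1 RPKM, 30 were lower in CM/miR-126Δ/Δ, with a median log2 fold change of -0.09. Without the 10 genes that was 23 of 30 with a median of -0.07, and over all genes of at least 1 RPKM it was 6719 of 11682 with a median of -0.02.

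Within 5 Mb, 18 of 193 genes (9.33%) passed the unadjusted limit, 11 of them lower, against 19 of 207 (9.18%; 5 lower and 14 higher) between 5 and 20 Mb and 76 of 1075 (7.07%; 43 lower and 33 higher) on the rest of the chromosome. An edgeR adjusted p under 0.05 was reached by 1 of the 207 genes between 5 and 20 Mb and by none within 5 Mb. Over all 18747 genes, 2 (0.0107%) reached it. Slc27a4, a fatty acid transporter gene 3219 kb away, was the only gene of at least 1 RPKM within 5 Mb, Mir126a aside, with an unadjusted p of 0.01 or less and a change of at least 1.5-fold. It was at 24.3, 17.8, 19.2, 22.0 and 22.1 CPM in CM and at 32.5, 31.9, 30.3, 30.6 and 33.2 CPM in CM/miR-126Δ/Δ. All 5 mice without miR-126 were above all 5 with it (log2 fold change 0.59, SE 0.0887, edgeR quasi-likelihood adjusted p = 0.0679). DESeq2 gave Slc27a4 an adjusted p of 2.22e-07, so that its call depended on the test.

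**Figure D3:**
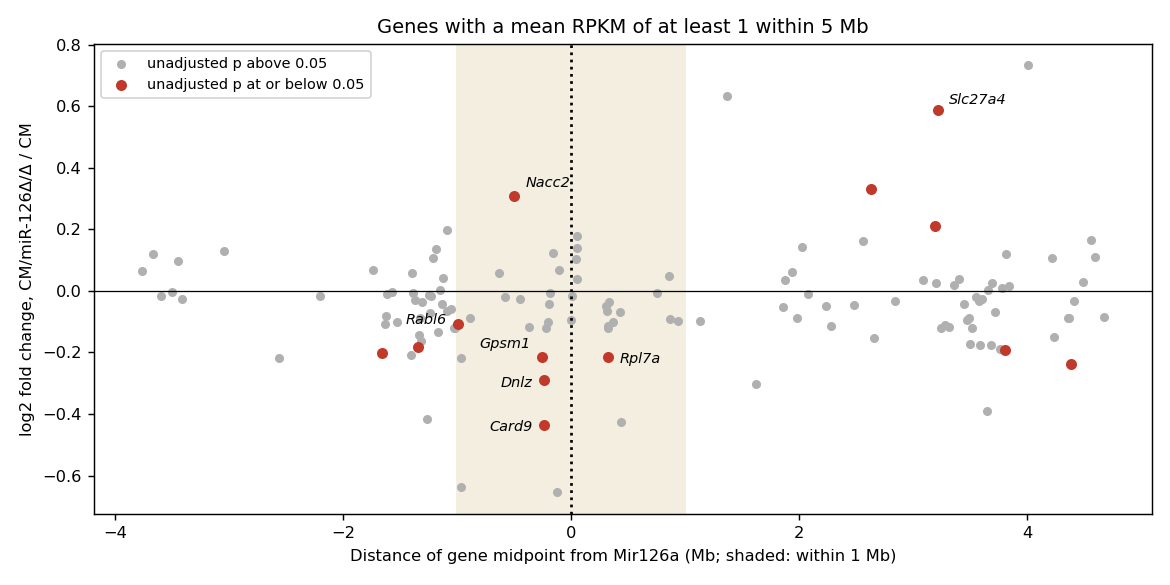
Log2 fold change (CM/miR-126Δ/Δ against CM, 5 mice each) of each gene with a mean of at least 1 RPKM in either genotype against its distance in Mb from Mir126a, which is not drawn. Red points have an unadjusted edgeR p of 0.05 or less; Dnlz, Gpsm1 and Card9 lie together within the shaded 1 Mb on the lower side, and Slc27a4 lies 3219 kb away.

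Expression per exon length placed the 8 protein-coding genes in an order led by Egfl7. Its mean over the 10 mice was 69.6 RPKM, with 3.23% of all genes with a count above it. Notch1 followed at 29.8 RPKM, below Egfl7 and above Sec16a in each of the 10 mice. Sec16a (22.3 RPKM) and Agpat2 (21.9 RPKM) came next and could not be ordered, since Sec16a was above Agpat2 in only 6 of 10 mice. Gpsm1 (9.43), Snapc4 (9.10), Card9 (8.95) and Dnlz (8.15 RPKM) formed a lower group whose ranges overlapped from neighbour to neighbour. Over all 10 mice pooled, only the ranges of Egfl7 and Notch1 and those of Agpat2 and Gpsm1 were apart, while those of Notch1 and Sec16a overlapped.

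**Figure D4:**
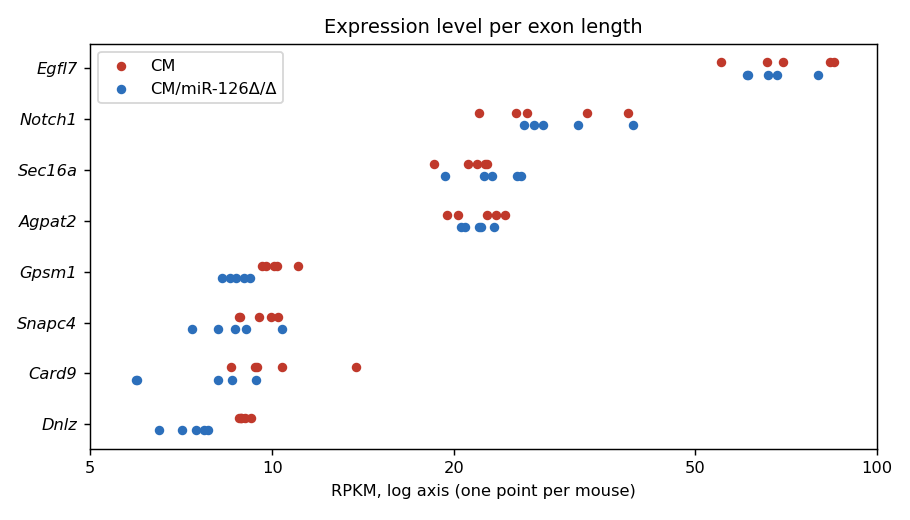
RPKM of the 8 protein-coding genes on a log axis, 1 point per mouse, red for CM and blue for CM/miR-126Δ/Δ. Egfl7 lies at 55.1 to 84.8 RPKM in all mice, apart from Notch1, and a second step separates Agpat2 from Gpsm1.

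No correlation of Egfl7 with a neighbour from mouse to mouse passed its adjusted test. Correlations of its log2 CPM with those of the 7 neighbours over the 10 mice were tested with 100000 permutations and adjusted over the 7. The one with the smallest p was with Sec16a, Pearson's r = -0.69 (permutation p = 0.0271, adjusted p = 0.189) and Spearman's rho = -0.62 (permutation p = 0.0607, adjusted p = 0.425). Without CM mice 4 and 2, the farthest from the median of Egfl7, r was -0.50. Within CM it was -0.73 and within CM/miR-126Δ/Δ -0.74 over 5 mice each, but among the 6 females it was -0.27, and male mouse 4 of each genotype had the lowest Sec16a. For the other 6 neighbours r lay between -0.09 (Snapc4) and 0.38 (Gpsm1), with Agpat2 at 0.27 and Notch1 at 0.16.

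The genes whose pattern over the 10 mice was most like that of Egfl7 lay on other chromosomes. Among 11681 genes of at least 1 RPKM the 5 with the highest Pearson's r of log2 CPM were Zbtb17 (0.96), Hddc2 (0.95), Tnfrsf13c (0.93), Mief2 (0.91) and Grasp (0.90). These genes share libraries and depth with Egfl7, and the values are a description over 10 mice. Gpsm1 ranked 2550 and Sec16a 11269 of the 11681 in the same order.

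Notch pathway genes were read as a list of 46 because Notch1 is a neighbour and EGFL7 can bind Notch receptors. Of the 46, Numb, an inhibitor of Notch signalling, had an unadjusted p of 0.05 or less (log2 fold change 0.20, edgeR quasi-likelihood adjusted p = 0.748), against 6.61% of all genes. That count of 1 went from 0 without CM mouse 2 or 4 or CM/miR-126Δ/Δ mouse 2 or 5 to 6 without CM/miR-126Δ/Δ mouse 4. It was 3 without CM mouse 3 and 2 without CM mouse 5. The median log2 fold change of the 34 members of at least 1 RPKM was -0.01, with 17 lower. The highest per length were the protease Adam10, which cuts the receptor (77.5 ± 3.43 RPKM in CM, 76.7 ± 8.55 in CM/miR-126Δ/Δ), the glycosyltransferase Mfng (52.0 ± 5.32 and 48.8 ± 2.96 RPKM) and the receptor Notch2 (49.7 ± 5.01 and 53.8 ± 8.28 RPKM, SD, n = 5 each). Of target genes, Hes1 differed so much between mice (3.72 ± 4.03 and 2.93 ± 3.51 RPKM) that its interval spanned -2.30 to 1.61 on the log2 scale, Nrarp had a log2 fold change of -0.21 (adjusted p = 0.765), and Dll3, Hey2 and Heyl, a ligand and 2 target genes, had under 10 counts in every library.

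**Figure D5:**
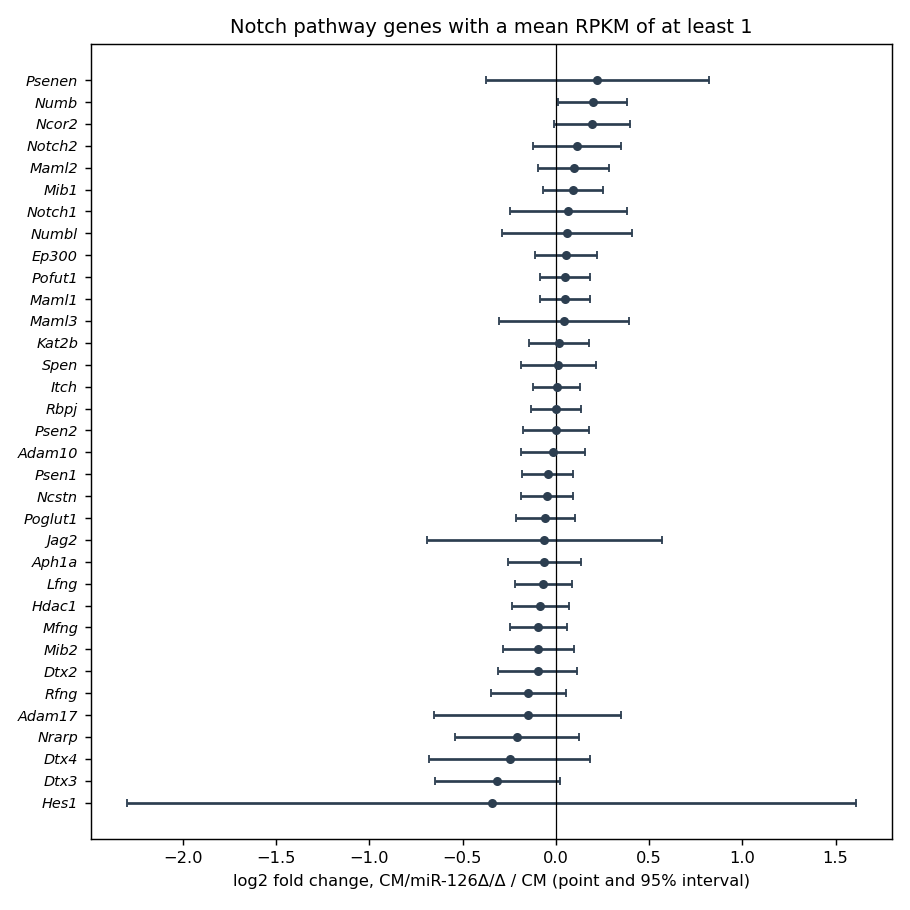
Log2 fold change (CM/miR-126Δ/Δ against CM, 5 mice each) with its 95% interval for the 34 Notch pathway genes with a mean of at least 1 RPKM in either genotype, ordered by value. The Numb interval lies above 0, the interval of Hes1 is the widest, and all other intervals, Notch1 included, reach across 0.

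The 9 transcription factors and partners chosen as known regulators of Egfl7 or of blood stem cell genes (Gata2, Runx1, Cbfb, Ets1, Ets2, Erg, Fli1, Tal1 and Lmo2) were all expressed, and none had an unadjusted p of 0.05 or less. Lmo2, a bridging partner of GATA and TAL1 proteins, was the highest at 274 ± 20.5 RPKM in CM and 287 ± 19.3 in CM/miR-126Δ/Δ (log2 fold change 0.07, adjusted p = 0.840 by edgeR's quasi-likelihood test). The ETS factors Fli1 and Erg had log2 fold changes of 0.06 and 0.02, and Gata2 of 0.12. Egfl8, the paralog of Egfl7, was near 1 RPKM (0.957 ± 0.186 and 0.795 ± 0.381, SD, n = 5), so Egfl7 made up nearly all of the RNA of the pair.

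The promoters of the 8 protein-coding genes were searched for the core motif of the CBF complex (TGTGGT) and a GATA motif (AGATAA), on both strands, in RefSeq windows of 250 bases before to 50 bases after each start. These are the motifs of the factor that carries the CM fusion and of Gata2. Of 32851 such windows 16.8% hold the first and 11.2% the second. The 3 windows of Egfl7 hold neither, and Gpsm1 was the only one of the 8 genes with a match, 1 of each in 2 windows that overlap. For Egfl7 this says only that these exact letters are not in the 3 windows; variants of the motifs and sequence farther from the starts were not searched, and nothing about the binding of either factor at Egfl7 follows from it. The 250 bases before the first Gpsm1 start (GRCm38.p6, plus strand, chr2:26314361-26314610) are printed with both matches in capitals, the GATA motif on the minus strand, because Gpsm1 is one of the 3 lower neighbours:
Gpsm1 upstream: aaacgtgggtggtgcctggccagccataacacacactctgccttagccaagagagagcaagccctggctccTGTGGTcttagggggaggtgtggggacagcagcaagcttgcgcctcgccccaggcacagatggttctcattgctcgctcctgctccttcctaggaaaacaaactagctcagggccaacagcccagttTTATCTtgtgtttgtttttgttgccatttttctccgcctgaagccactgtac
A match of letters is a description and not a binding site.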

How the data were processed

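RNA of LSK cells was sequenced in 1 library per mouse, with 5 mice of each genotype (CM and CM/miR-126Δ/Δ), and genotype and mouse number were taken from the sample labels. The authors depleted ribosomal RNA, prepared stranded libraries and read them as single ends of 51 bases, trimmed the reads, aligned them with Tophat to mm10 and counted them per RefSeq gene with HTSeq (0.6.1p1 in the submitters' processing notes). The deposited values are raw read counts per gene, used as they stand. The strand setting of the counting is not given in the sources used here. A second deposited table held the same counts times 1 constant per library and was not used.

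All 18747 genes that had a read in some library entered a fit with edgeR 4.0.16 (TMM factors, quasi-likelihood F-test, genotype as the only term, two-sided), with p-values adjusted by Benjamini-Hochberg over all of them. The script was tested on simulated data with known fold changes. CPM were scaled by TMM, and RPKM used the exon length in the table. Single genes were also compared by a two-sided exact permutation test over the 252 splits of the mice into 5 and 5. Intervals are 95% intervals of the fit. Floors of 3 counts cover counting error only. No 2 libraries agreed within sampling noise. The labels do not say that mice of a genotype came from separate litters. Sex was called from Xist and Y-linked genes.

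The genes, the lists and the windows were chosen with earlier results of these data known. Named in the text are the 10 genes, genes within 1 Mb with an unadjusted p of 0.05 or less, genes within 5 Mb with p of 0.01 or less and at least 1.5-fold change at 1 RPKM or more, the 5 genes most like Egfl7, and in each list the 3 highest per length and those with p of 0.05 or less. Some list genes outside that rule were added after their values were seen (Cdh5, Kdr, Hes1, Nrarp, Dll3, Hey2, Heyl and Gata2). Alternatives were DESeq2 1.42.0 (Wald test), its size factors in edgeR, edgeR's filterByExpr, a block on mouse number, a term for sex, plain CPM, and each mouse left out in turn. Those for the CPM of Dnlz, Gpsm1 and Card9 were chosen after seeing the data.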

Additional observations from a re-analysis of the deposited data

How the results depend on the processing

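Of 273 alternative values, 238 were classed as unchanged. For fold changes, differences and correlations this means the same direction and side of the threshold. Counts of genes have neither, and some classed as unchanged still shifted. With 1 mouse left out, the count was 5 to 8 within 1 Mb (main fit 7) and 12 to 22 within 5 Mb (main fit 18). Among the 10 genes it was 3 to 5 (main fit 4). Egfl7 stayed between -0.16 and -0.02 on the log2 scale (edgeR or DESeq2 adjusted p 0.659 to 0.996). DESeq2 moved the number of the 10 genes with an adjusted p under 0.05 from 0 to 1 (Dnlz). filterByExpr took the count of genes within 1 Mb from 7 to 4 and turned Agpat2 to 0.00071; with 1 mouse left out, Agpat2 ranged from -0.0456 to 0.0319 and Notch1 from -0.0421 to 0.192. The count of Notch pathway genes (1) was 2 with sex as a covariate and 0 to 6 with 1 mouse left out. With plain CPM, 1 correlation of Egfl7 passed (Sec16a, r = -0.86, permutation adjusted p = 0.0129) and that with Snapc4 turned to 0.10; with genotype means removed those with Dnlz and Card9 turned to -0.00037 and -0.13. The cause of these shifts was not tested. Over all genes, DESeq2 called 45 at an adjusted p under 0.05, filterByExpr and sex as a covariate 4 each, against 2.

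Mice of the 2 genotypes share numbers, and same-numbered mice were of the same sex and had adjacent library numbers. Of the 5 same-numbered pairs, 4 correlated over 0.1 in their deviations (-0.00355 to 0.430). Of the 10 mice, 5 correlated best with their own number. The labels name no pairing and the main fit used none, but these values do not show that the mice were unpaired. With the replicate block, 3 Notch pathway genes had an unadjusted p of 0.05 or less, Sec16a joined the 4 of the 10 genes (5), 20 genes in all had an adjusted p under 0.05 against 2 (Slc27a4 at 0.0208), and the Mir126a difference of -0.0899 CPM had an exact p of 0.125. The paired exact p of Dnlz, Gpsm1 and Card9 was 0.0625, the smallest that 5 pairs allow. The exact test of the Card9 CPM gave p above 0.05 without CM mouse 2, 3 or 5 or CM/miR-126Δ/Δ mouse 1, 2 or 5.

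At 14 counts in all, Mir126a is limited by depth, and the 8 protein-coding genes, with at least 261 counts in every library, by the spread between 5 mice.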

Other observations

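Of the 10 markers of LSK cells, 3 (against 6.61% of all genes) had an unadjusted p of 0.05 or less with means that were higher without miR-126, and none had an edgeR quasi-likelihood adjusted p under 0.05. Hlf, a transcription factor of blood stem cells, was at 103 ± 9.69 RPKM in CM and 127 ± 15.8 RPKM in CM/miR-126Δ/Δ (SD, n = 5). Its log2 fold change was 0.31 (SE 0.0990, edgeR adjusted p = 0.661), with 0.49 (SE 0.0829) in females and 0.03 (SE 0.134) in males. The genotype-by-sex term of Hlf had an unadjusted p of 0.00698 and an adjusted p of 0.9999 (edgeR quasi-likelihood). Meis1 and Mecom, also stem cell transcription factors, had log2 fold changes of 0.19 and 0.24 (edgeR adjusted p = 0.746 and 0.748). By DESeq2 the adjusted p of Hlf, Meis1 and Mecom was 0.129, 0.370 and 0.546. Kit, the receptor used in the sort, had a log2 fold change of 0.11 (95% interval -0.11 to 0.34).

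Among the 14 endothelial genes, which were listed because Egfl7 is also an endothelial gene, Cldn5 was the 1 gene (7.14%, against 6.61% of all genes) with an unadjusted p of 0.05 or less, at no more than 46 counts in a library and 0.126 ± 0.105 and 0.468 ± 0.512 RPKM (edgeR quasi-likelihood adjusted p = 0.746). Pecam1, which stem cells express as well, was at 58.1 ± 5.80 and 56.5 ± 3.22 RPKM.

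Rabl6, 996 kb from Mir126a, was lower in every CM/miR-126Δ/Δ mouse than in every CM mouse (78.1 to 84.6 against 85.4 to 90.8 CPM), by less than any of the 3 lower neighbours.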
